A study of Rattus norvegicus with 4 samples.

Results

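The genes described here encode leukocyte integrins and ICAM1, a ligand of the integrins of the beta 2 family. Members were taken as the probes whose RefSeq accession belongs to 1 of 10 listed genes: the alpha subunits Itgam, Itgax, Itgal, Itga4 and Itgav, the beta subunits Itgb1, Itgb2, Itgb5 and Itgb7, and Icam1. Of these 10 genes, 8 had a probe by this rule, out of 16581 named genes, and no probe could be assigned to Itgax or Itgav. The 8 genes were covered by 10 probes, since Itgam and Itgb1 had 2 each.

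The cells were NR8383, a line of alveolar macrophages obtained by lavage of the lung of a normal rat, and had gone through 20 passages. The cells were seeded for 48 h and exposed to the iron oxide (Fe2O3) particle NRCWE018 at 2 µg/mL for 4 h. All 4 arrays come from exposed cultures, described in the study's design as biological replicates. Controls were not analysed here, and the values below are levels in exposed cells, with no measure of what the particles did. The labels describe the line as growing in part attached and in part floating, and the sources used here do not say from which of these cells the RNA came.

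Integrins are receptors made of an alpha and a beta chain that reach the cell surface as pairs and bind matrix proteins or proteins on other cells. In leukocytes the beta 2 chain CD18 (Itgb2) pairs with CD11a (Itgal), CD11b (Itgam) or CD11c (Itgax), and the pair of CD11b and CD18 is the complement receptor CR3, through which macrophages take up opsonised targets. ICAM1 is bound by the beta 2 pairs, the alpha 4 chain pairs with beta 1 or beta 7, and the alpha v chain with beta 1 or beta 5 among others. Talin and kindlin bind the beta tails inside the cell and switch integrins to their binding form.

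Itgam and Icam1 are shown with the start regions of their genes, since they encode a receptor chain and its ligand and both were above background on every array. The windows run from 250 bases before to 50 after the start site given by RefSeq on the GRCr8 assembly, 5′ to 3′ on the plus strand, at chr1:192089342-192089641 for Itgam and chr8:27829595-27829894 for Icam1. Capitals mark matches, on either strand, to GGAAATTCC (a kappaB-type motif), TTCNNNGAA (a GAS-type motif), GAGGAA (a core bound by PU.1-type factors) and TATAAA (the TATA box).
Itgam: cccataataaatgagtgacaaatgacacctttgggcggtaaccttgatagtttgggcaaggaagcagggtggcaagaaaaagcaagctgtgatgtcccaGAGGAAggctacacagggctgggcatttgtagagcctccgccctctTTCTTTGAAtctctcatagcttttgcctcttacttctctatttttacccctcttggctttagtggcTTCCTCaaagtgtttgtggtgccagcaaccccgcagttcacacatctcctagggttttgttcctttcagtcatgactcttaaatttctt
Icam1: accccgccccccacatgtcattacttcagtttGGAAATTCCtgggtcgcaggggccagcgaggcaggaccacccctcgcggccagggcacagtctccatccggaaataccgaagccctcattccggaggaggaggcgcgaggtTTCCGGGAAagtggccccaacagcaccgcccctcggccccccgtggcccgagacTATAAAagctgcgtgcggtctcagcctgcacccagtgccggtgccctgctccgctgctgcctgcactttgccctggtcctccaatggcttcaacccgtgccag
In the Itgam window, GAGGAA began 151 bases before the start site and its reverse complement 39 bases before it, with a GAS-type match at 105 bases. The Icam1 window held a kappaB-type match at 218 bases, a GAS-type match at 107 bases and a TATA box at 53 bases before the start. No match overlapped another motif. Of 33469 RefSeq windows of the same length, 0.332% held the kappaB-type motif, 8.87% the GAS-type motif, 27.6% GAGGAA and 14.2% TATAAA. A match is a stretch of letters, and binding was not measured. A window was listed for 8 of the 10 genes. In the same gene table Itgax is the next protein-coding gene after Itgam.

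The arrays of replicates 1 to 3 were of similar brightness, and that of replicate 4 was dimmer, with the lowest share of probes detected. The percentile used for scaling lay at 1072, 984.3, 1082 and 756.5 intensity units on replicates 1 to 4, and 37.8% to 41.2% of 45598 probes were well above background. No spot was saturated. Of 12 macrophage markers 10 were above background on all 4 arrays, including Cd68 and Csf1r, whereas Adgre1 and Cd163 were above it on none. All 6 lung epithelium markers were above background on no array. Of 8 T and NK cell markers 4 (Cd3d, Cd4, Lck and Nkg7) were above it on all and the other 4, Cd3e, Cd3g, Cd8a and Klrb1a, on none. Detection on all arrays held for 3 of 4 alveolar macrophage, 1 of 3 B cell, 2 of 5 granulocyte, 3 of 5 endothelium, 1 of 5 fibroblast and 0 of 3 platelet markers. Beside these marker counts stands the 50.5% of all named genes detected on all 4 arrays. Levels below are on a log2 scale on which 0 is the 75th percentile of the array's signals, and the mean ± SD is over n = 4 arrays. Probes share no common scale, so a level of one gene was not set against that of another.

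Itgam, Itgb2, Itga4, Itgb1 and Icam1, 5 of the 8 genes with a probe, were well above background on all 4 arrays. Itgal was detected on 1 array, and Itgb5 and Itgb7, the other 2 genes, on none. Among all 16581 named genes the share above background on all arrays was 50.5%, so 5 of 8 is not a share that sets these genes apart. In RNA from a whole culture, fewer cells of a type and less RNA per cell cannot be told apart.

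**Figure D1:**
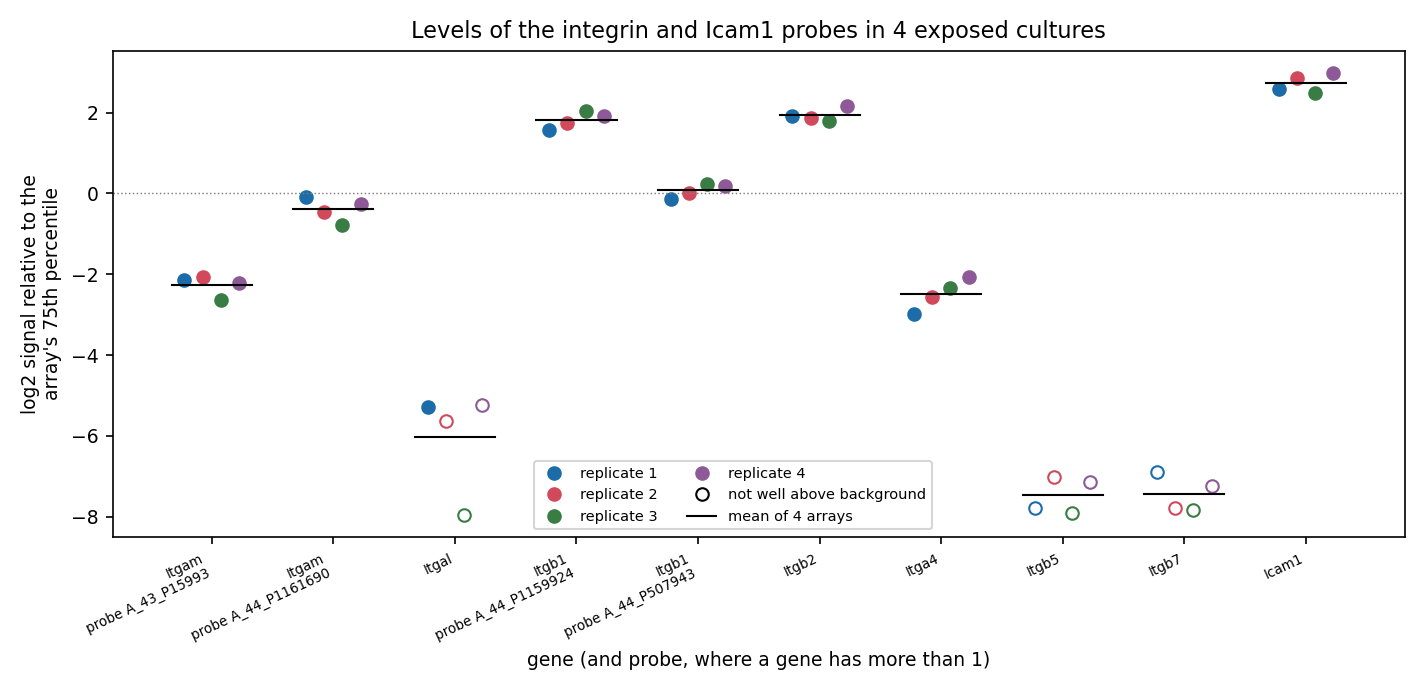
Log2 level (vertical axis, 0 is the 75th percentile of the array) for the 10 probes (horizontal axis). Each point is 1 array, coloured by replicate, open where the probe was not well above background, and the bar is the mean of 4 arrays. The 7 probes of Itgam, Itgb1, Itgb2, Itga4 and Icam1 have 4 filled points each; those of Itgb5 and Itgb7 have none.

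RNA of both chains of CR3 was above background in every culture. Itgb2, the chain shared by all CD11 pairs, was at 1.92, 1.87, 1.80 and 2.17 in replicates 1 to 4, a mean of 1.94 ± 0.16. After scaling replicate 4 stood highest, and the other 3 cultures lay between 1.80 and 1.92. The processed signal of Itgb2 was 4052, 3592, 3772 and 3396 units in replicates 1 to 4, dimmest in replicate 4. Itgam was at -0.08, -0.46, -0.77 and -0.25 by the probe of accession XM_006230214, with a mean of -0.39 ± 0.30. By the probe of accession NM_012711 Itgam was at -2.13, -2.08, -2.63 and -2.21, with a mean of -2.26 ± 0.25. Both Itgam probes were lowest in replicate 3, whereas the highest culture was replicate 1 by the first and replicate 2 by the second. The highest culture of Itgam changed with the processing: it was replicate 4 by both probes after normexp background correction, and replicate 1 by both with the 75th percentile taken over detected probes. The difference between the Itgam probes varied over the arrays with an SD of 0.19, so part of the spread of either probe was not shared by the other.

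Itgal, the alpha chain of LFA-1, was well above background in replicate 1 alone, at 27.6 intensity units. Its processed signal was 19.7, 4.36 and 20.0 in replicates 2 to 4, where the probe was not well above background. The dimmest probe called above background on each array had a signal between 20.7 and 23.7 units, so Itgal sat at the edge of detection and its log2 values have no order. The wider mark of a positive and significant signal was given to Itgal on 3 of 4 arrays, and to Itgb5 and Itgb7 on 1 array each.

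Icam1, the ligand of these pairs, was at 2.60, 2.87, 2.50 and 2.99 in replicates 1 to 4, a mean of 2.74 ± 0.23. Its processed signal was 6481, 7199, 6103 and 5998 units, against a local background of 50 to 54 units. Replicate 4 had the dimmest unscaled signal and the highest level after scaling, on the array whose 75th percentile was also the lowest. The unscaled signals of Icam1 differed by at most 1.20-fold between cultures.

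Itgb1, the beta chain of most matrix-binding integrins, was the best measured gene of the 8, with a probe spotted 10 times on each array. By this probe it was at 1.56, 1.76, 2.03 and 1.92 in replicates 1 to 4, a mean of 1.82 ± 0.20. Replicate 1 was lowest and replicate 3 highest. The spots left after removal of marked outliers ran from 1.42 to 1.73 in replicate 1 (10 spots) and from 1.88 to 2.19 in replicate 3 (10 spots), so the spots of these cultures did not overlap, whereas those of replicates 3 and 4 did. Within an array the SD among spots was 0.066 to 0.10, smaller than the SD of 0.20 between arrays. Spots of 1 array share the culture and the hybridisation, so culture and array cannot be told apart.

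The second Itgb1 probe, spotted 2 times, was at -0.13, 0.02, 0.23 and 0.20 in replicates 1 to 4, a mean of 0.08 ± 0.17. It put the cultures in the same order as the first probe, with replicate 1 lowest and replicate 3 highest. The difference between the Itgb1 probes had an SD of 0.046 over the arrays, against 0.19 for the Itgam probes. Each Itgam probe had 1 spot per array, so its values were not averaged over spots as those of Itgb1 were. The Itgam probes were also assigned by different RefSeq transcripts, and those of Itgb1 by the same transcript. The parts of spot number and transcript cannot be told apart here and were not tested.

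**Figure D2:**
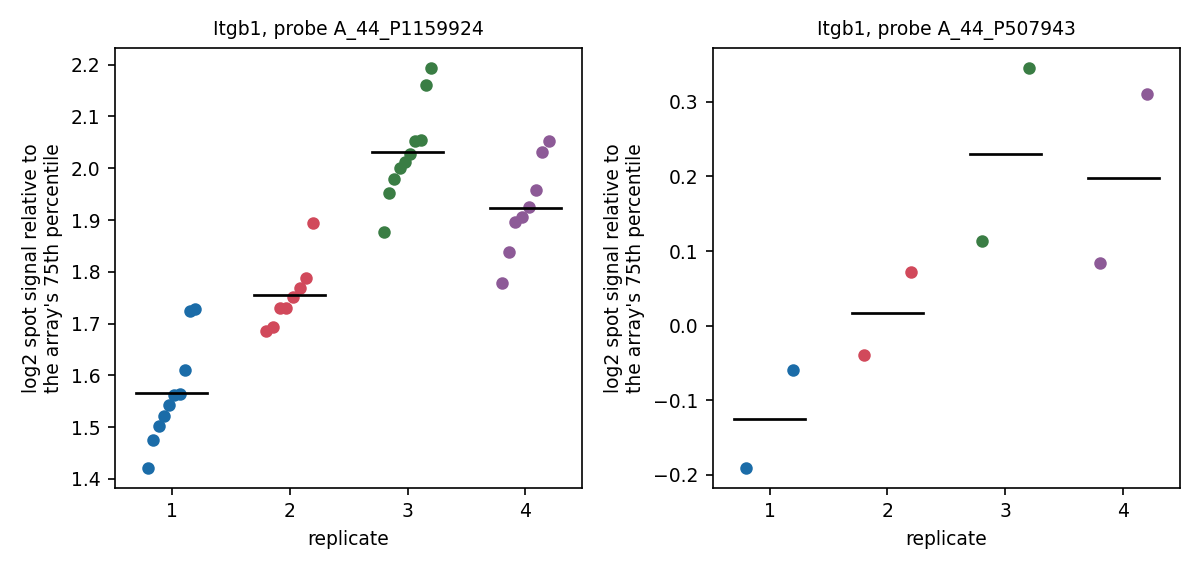
Log2 level of each spot of the 2 Itgb1 probes (vertical axes, 0 is the 75th percentile of the array) by replicate (horizontal axes), spots spread sideways by value, with the mean of the spots as a bar. In the probe with up to 10 spots per array, all replicate 3 spots (1.88 to 2.19) lie above all replicate 1 spots (1.42 to 1.73).

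Itga4, the alpha chain of VLA-4, which binds VCAM1 and fibronectin, was at -2.99, -2.56, -2.34 and -2.06 in replicates 1 to 4, a mean of -2.49 ± 0.39. Its SD was the widest of the 5 genes above background, with replicate 1 lowest and replicate 4 highest. Its processed signal was 135, 167, 213 and 182 units in replicates 1 to 4, so before scaling replicate 3 was brightest. The local background of 45 to 48 units had already been subtracted from these values. The dimmest probe called above background on each array had 20.7 to 23.7 units.

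The remaining beta chains gave no level. Itgb7, which pairs with alpha 4 or alpha E in lymphocytes that home to the gut, had signals of 8.97, 4.46, 4.75 and 5.01 units in replicates 1 to 4. Itgb5, a partner of alpha v, had signals of 4.86, 7.59, 4.51 and 5.32 units. All 8 of these values lay below the dimmest signal called above background on the same array, and each gene had 1 probe. A dim probe is not evidence of a silent gene.

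The cultures did not keep 1 order across the detected genes. Replicate 3 was lowest for Itgam, Itgb2 and Icam1, whereas replicate 1 was lowest for Itgb1 and Itga4. Over all 8376 genes above background on the 4 arrays, replicate 3 was lowest for 34.4% and replicate 1 for 29.9%. As deviations from the own mean of the probe of higher level, replicate 1 was at 0.31 for Itgam and -0.25 for Itgb1. Replicate 3 was at -0.38 for Itgam and 0.21 for Itgb1. By the other probe of each gene, replicate 1 was at 0.13 for Itgam and -0.20 for Itgb1. There replicate 3 was at -0.36 for Itgam and 0.15 for Itgb1. These opposite positions of Itgam and Itgb1 were chosen for mention after the values were seen and were not tested. Under quantile normalization replicate 2 was lowest for Itgb2; for the other 4 genes the lowest culture was the same under quantile normalization, under normexp background correction and with the 75th percentile taken over detected probes. Replicate 4 was highest for 3 of the 5 genes (Itgb2, Itga4 and Icam1, which kept it under these 3 alternatives, while Itgam joined them after normexp), and for 36.3% of all 8376 genes above background on the 4 arrays. The mean deviation of the 10 detected macrophage markers was 0.06, -0.08, -0.13 and 0.15 in replicates 1 to 4, likewise lowest in replicate 3 and highest in replicate 4. The 3 detected endothelium markers had the same lowest and highest cultures, at -0.18 and 0.22, and the 4 detected T and NK cell markers were lowest in replicate 3 (-0.23) and highest in replicate 1 (0.13). The 2 detected granulocyte markers had the widest swing, from -0.48 in replicate 3 to 0.46 in replicate 2, and the 3 detected alveolar macrophage markers ran from -0.10 in replicate 3 to 0.087 in replicate 2. The B cell and fibroblast lists, with 1 detected marker each, were lowest in replicate 2 (-0.26 and -0.16) and highest in replicate 4 (0.41 and 0.14). The part of these lists in the order of the integrin genes was not tested. The median deviation over all 8376 genes was 0.07 in replicate 4 and between -0.03 and 0.01 in the others. Before scaling, replicate 4 was the dimmest culture for Itgb2 and Icam1, and replicate 3 was the brightest for Itga4.

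**Figure D3:**
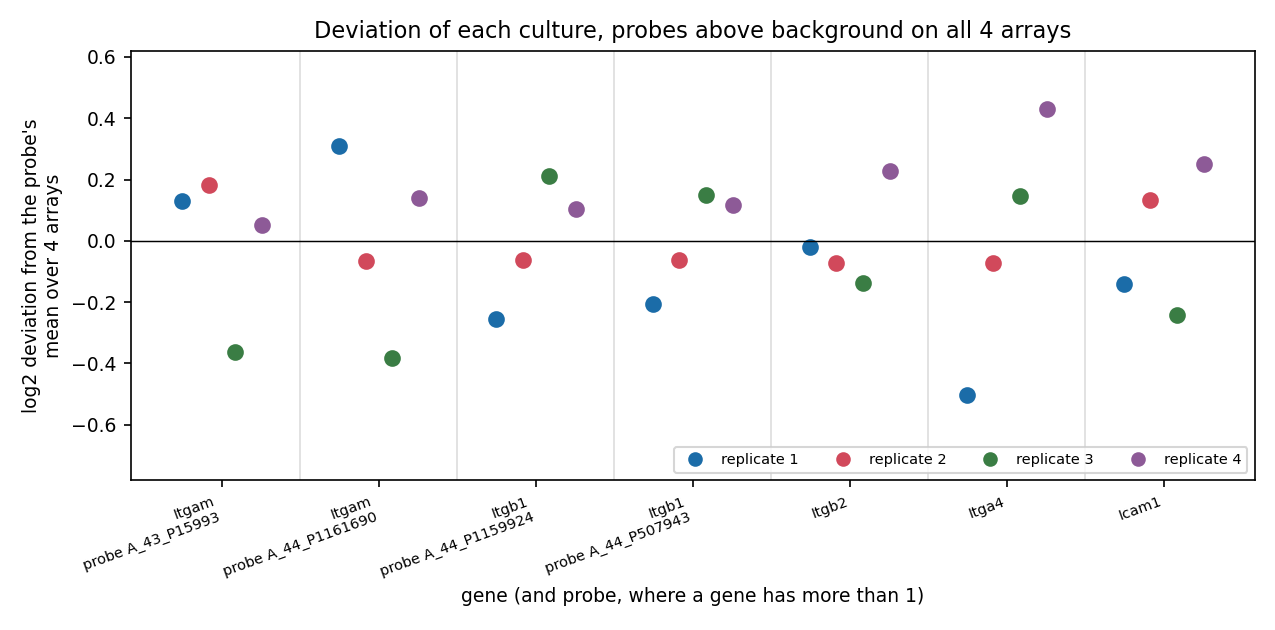
Log2 deviation of each culture from the probe's mean over 4 arrays (vertical axis) for the 7 probes above background on all arrays (horizontal axis), coloured by replicate. Replicate 3 is the lowest point for both Itgam probes, Itgb2 and Icam1 and lies above the mean for Itgb1 and Itga4; replicate 1 is the lowest for Itgb1 and Itga4.

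Partner chains were compared by the difference between their probes within an array, which does not depend on the scaling by the 75th percentile. Both chains had a probe for 4 of the planned pairs, and 2 of these 4 had both chains above background on all arrays. Itgam and Itgb1 were each taken by the probe of higher level. The difference of Itgam from Itgb2 varied over the cultures with an SD of 0.24 and a range of 0.58. It was highest in replicate 1 and lowest in replicate 3. Without replicate 1 that SD was 0.13. With the mean of both Itgam probes the SD over all 4 cultures was 0.22. The other Itgam probe, itself highest in replicate 2, was not set against Itgb2 on its own, so these positions hold for 1 probe. The difference of Itga4 from Itgb1 had an SD of 0.24 and a range of 0.57, highest in replicate 4 and lowest in replicate 1, and without replicate 4 the SD was 0.12. The SD of Itgam alone was 0.30 and that of Itgb2 alone 0.16. The SD of Itga4 alone was 0.39 and that of Itgb1 alone 0.20. In both pairs the SD of the difference lay between those of the chains. Whether partner chains vary together was not tested.

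The spread of each gene was then tested against that of genes of like level. Limma's variance test took in the 8376 genes detected on every array, and 0.191% of them (16 genes) had an adjusted p under 0.05. That count depended on the processing: it was 156 after normexp background correction, 10 with a prior fitted without robustness, 5 with a prior held constant over levels and 7 without replicate 2. Of the 5 integrin and Icam1 genes 0 passed here or under any of these alternatives. An unadjusted limma p under 0.05 was found for 5.75% of all genes (482 of 8376) and for 0 of the 5, a number too small to set them apart. Itga4 had the lowest p of the 5, with an SD of 0.39 against 0.23 for genes of its level (limma unadjusted p 0.0921, adjusted p 0.978). Icam1 had an SD of 0.23 against 0.15 (limma adjusted p 0.987), Itgam 0.30 against 0.19 (limma adjusted p 0.979), Itgb1 0.20 against 0.16 and Itgb2 0.16 against 0.16 (limma adjusted p 0.995 for both). The median SD of the 5 genes was 0.23, beside 0.18 over all 8376. Each SD rests on 4 arrays, which limits its precision. In simulated data the test called 65 of 100 genes given a 5-fold SD, so a smaller excess can go uncalled.

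**Figure D4:**
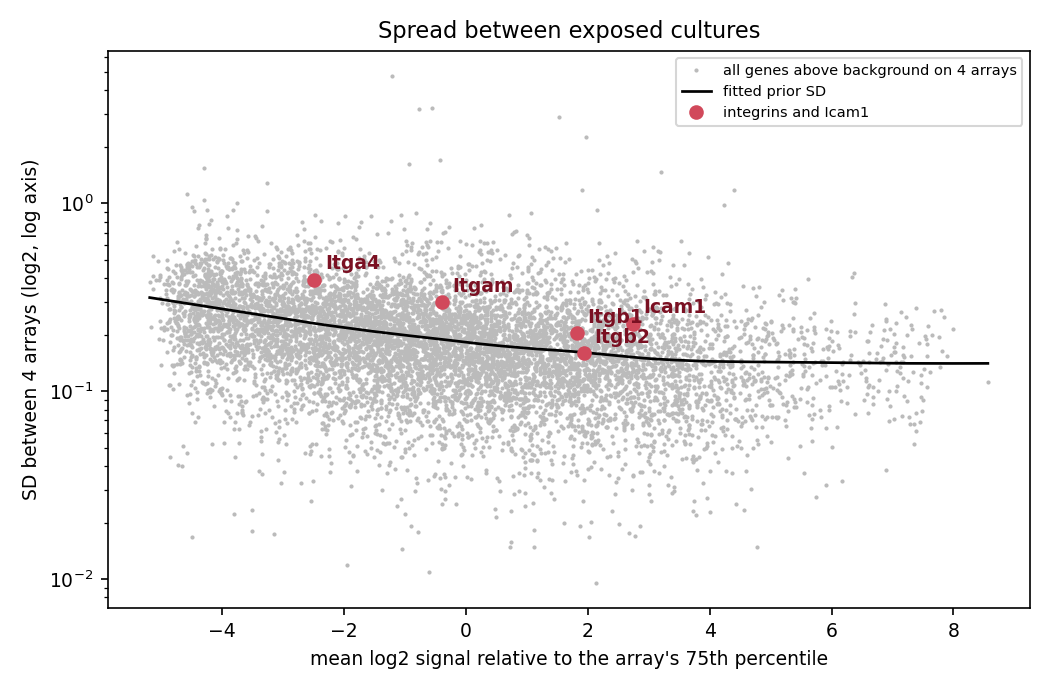
SD between the 4 arrays (vertical axis, log2 units on a log axis) against mean log2 level (horizontal axis) for 8376 genes above background on all arrays (grey), with the fitted prior SD (line) and the 5 integrin and Icam1 genes (red). Itgb2 lies on the line at 0.16, and Itga4 at 0.39 above a prior of 0.23.

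The wider integrin machinery was described from 5 gene lists. Beside the count of each list below stands the 50.5% of all named genes detected on every array. Of 69 listed genes, 61 had a probe, and 37 of these (60.7%) were detected on every array, beside 50.5% of all named genes; Icam4 was detected on 2 arrays and the other 23 on none. In the spread test 0 of the 37 passed after limma's adjustment. An unadjusted p under 0.05 was found for 3 of the 37, near the 5.75% of all genes: Itgae, Zyx and Rac2, named after their values were seen. Itgae, the alpha E chain, was lowest in replicate 4, at -2.47, lay at -1.26, -0.91 and -1.24 in replicates 1 to 3, and its limma adjusted p was 0.242. Its partner Itgb7 had no level.

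Of 11 other integrin subunits with a probe, 5 were above background on all arrays. Itga5, the alpha chain of the main fibronectin receptor, was at -2.34 ± 0.14 (n = 4), and Itga6, a laminin receptor chain, at -1.72 ± 0.26. Itgb3, a vitronectin receptor chain that pairs with alpha v, was at -2.40 ± 0.39, and Itgb4 was above background too. Itga1, Itga7, Itga8 and Itga10, which form receptors for collagen, laminin or other matrix proteins, were above background on no array, and neither was Itgad, a further partner of Itgb2. For CD11b with CD18 and for alpha 4, alpha 5 or alpha 6 with beta 1, RNA of both chains was above background on all arrays. The same held for the laminin receptor pair of alpha 6 with beta 4. The arrays measured RNA, and neither the proteins nor their pairing at the cell surface was measured.

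Genes of integrin activation were detected in most cases, 13 of 16 on all arrays. Talin 1 (Tln1), which links the beta tail to actin, was at 3.20 ± 0.24 (n = 4). Kindlin 3 (Fermt3), the form of blood cells, was at 0.53 ± 0.21, kindlin 2 (Fermt2) at -2.94 ± 0.07 and the small GTPase Rap1a at -3.12 ± 0.29. Tln2, Fermt1 and the exchange factor Rasgrp2 were above background on no array.

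In the list of adhesion signalling, 9 of 12 measured genes were above background on all arrays. The kinase Pyk2 (Ptk2b) was at 0.38 ± 0.11 (n = 4), whereas its relative FAK (Ptk2) was above background on no array, and Src and Bcar1 also were not. The adaptor vinculin (Vcl) was at -1.27 ± 0.32, zyxin (Zyx) at 2.02 ± 0.40 and the actin regulator Vasp at 5.63 ± 0.14. The myeloid Src-family kinases Fgr and Lyn were above background on all arrays.

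Ligands were the list with the fewest detected genes, 4 of 15. Icam2, a further ligand of LFA-1, was at -2.37 ± 0.07 (n = 4), Icam5 at -4.01 ± 0.10, the junction protein F11r at 0.65 ± 0.09 and the fibrinogen chain Fgg at -3.68 ± 0.08. Vcam1 and Madcam1, the cell-surface ligands of the alpha 4 pairs, and Jam2 and Jam3 were above background on no array, as was fibronectin (Fn1). Among 7 other surface genes of leukocyte adhesion, 6 were above background on all arrays, with the hyaluronan receptor Cd44 at 3.32 ± 0.18, the integrin-associated protein Cd47 at 2.63 ± 0.13 and the tetraspanins Cd9 at 3.00 ± 0.14 and Cd81 at 1.97 ± 0.26. Spn was above background on none.

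**Figure D5:**
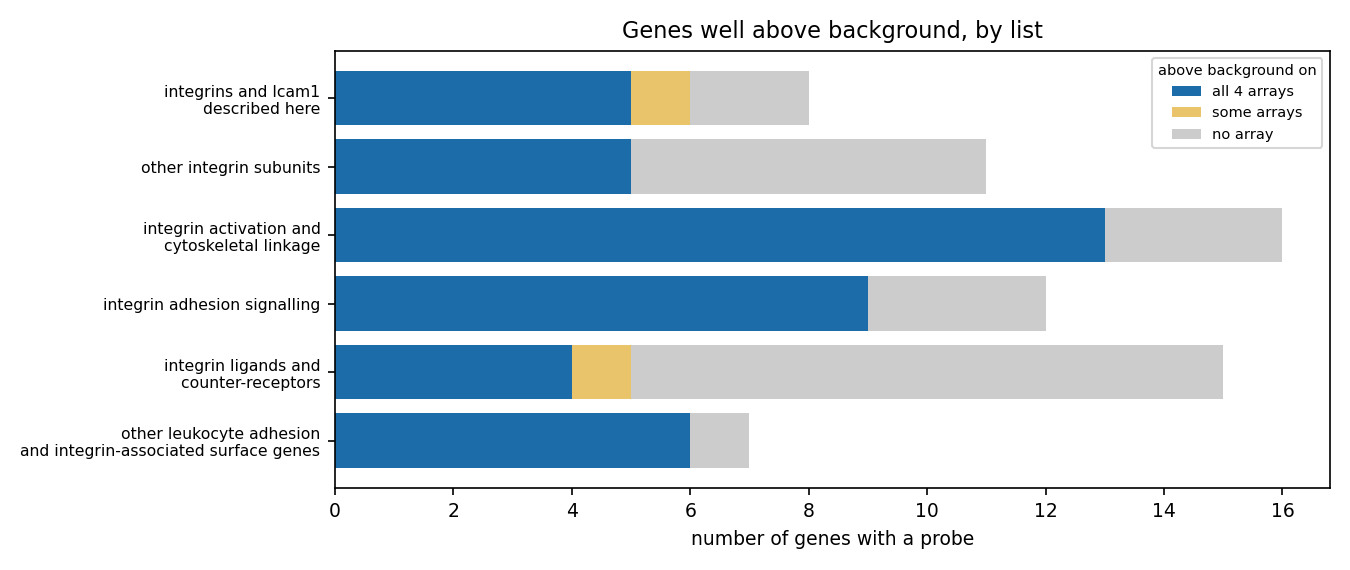
Number of genes with a probe (horizontal axis) called well above background, coloured by whether on every array, on some or on none, for the 8 integrin and Icam1 genes and 5 lists of related genes (vertical axis). The activation list has 13 of 16 genes above background on all arrays and the ligand list 4 of 15.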

How the data were processed

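Cy3-labelled cRNA from total RNA was hybridised to Agilent rat arrays in 1 colour, as the labels' protocols state. The deposited intensity values are the authors' output of Agilent Feature Extraction 11.0.1.1, a version named in the submitters' processing notes. Processed signals had been background-subtracted and detrended within an array, per the file headers. The sources used here do not say how the authors scaled between arrays. The 4 arrays lay on 1 slide, scanned together, and no 2 held identical values.

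From these intensities, log2 levels were taken with 0 at the 75th percentile of each array, over non-control spots without an outlier mark. Repeat spots were averaged, leaving out marked ones unless all were marked. Detection is the well-above-background flag. Unversioned accessions were matched to RefSeq's GRCr8 gene list, used for names and start regions: 21109 of 45598 probes matched and 24489 stayed unnamed. In counts and levels of related genes and in the spread test, 1 probe stood for a gene with several. It was the probe detected on most arrays, then of highest mean. Of the related genes given a level, Itga6, Itgb3, Vasp, F11r, Cd44 and Cd47 had 2 probes, and the level of the other is not given.

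Limma 3.58.1 in R 4.3.3 set each gene's variance between arrays against a prior trend on level, fitted robustly, with 9.16 prior degrees of freedom. The F test was upper-tail, with Benjamini-Hochberg adjustment over all genes and a threshold of 0.05. The script was tested on simulated data. Named were all members, and of each related list the first 4 detected genes with their levels and the first 4 detected on no array; other related genes were named after their values were seen. Of the planned related genes, 2 are not reported here. Members and lists were chosen with earlier results of these data known. The planned normexp correction used the median spot signal (offset 50) in place of the mean.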

Additional observations from a re-analysis of the deposited data

Results flagged for a closer look

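Of 49 sets of 4 array values examined, for the member probes, the differences between partner chains and the related genes above background, 3 had an array apart from the others by Dixon's test. Chance gives about 1 in 20. Itgal had a ratio of gap to range of 0.852, with replicate 3 low, but 3 of its 4 values were not well above background. Ptk2b, the kinase Pyk2, had a ratio of 0.949, at 0.54 in replicate 2 and between 0.32 and 0.33 in the others. Lims1, which binds integrin-linked kinase, had 0.860, at -1.90 in replicate 1 and between -1.56 and -1.50 in the others. Limma's variance test called neither Ptk2b nor Lims1.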

How the results depend on the processing

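The number of integrin and Icam1 genes above background on all arrays was 5 with the positive and significant mark, with every probe required, and without any single replicate, and 6 where 1 array sufficed. For the related genes it was 36 to 39 under these alternatives. Of the tested members 0 passed the spread test under any alternative run. Over all genes the count of 16 was 156 after normexp background correction, 10 when the prior was fitted without robustness, 5 when it was held constant over levels, and 7 to 22 without a single replicate, lowest without replicate 2; the cause was not tested. The median SD of the members ranged from 0.19 to 0.26. Over the omissions of 1 replicate, the SD of the difference between partner chains ran from 0.13 to 0.30 for Itgam and Itgb2. For Itga4 and Itgb1 it ran from 0.12 to 0.29. These SDs take Itgam and Itgb1 by the probe of higher level.

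Levels depend on the scale: taking the 75th percentile over probes above background on all arrays shifted every member by -3.41, and keeping marked spots shifted the median gene by -0.18. After normexp the detected members moved by -0.25 to 0.44. No paired analysis was possible because the labels give 1 group. Signals of Itgal, Itgb5 and Itgb7 were too close to background to give a level.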
